A study of Mus musculus with 2 samples.

Results

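Peaks of TOBF1 lying within 1 kb of the start or the end of a protein-coding gene, outside histone and ribosomal protein genes, were described from a ChIP-Seq peak list of mouse embryonic stem (ES) cells. TOBF1 is the protein of the gene A830080D01Rik. The list came from 1 library, an anti-GFP precipitation from R1/E ES cells that carried TOBF1 tagged in a BAC (a bacterial artificial chromosome, which holds a large cloned piece of genomic DNA), grown in serum medium with LIF. The other library, an input made without antibody from cells with the same construct, has no file used here. The labels name the tagged BAC in both libraries and no cells without it, and they do not say whether the cells were 1 clone. With 1 library there was no replicate and no test, and every comparison below describes that library. Intervals are 95% and exact (Clopper-Pearson for shares, Poisson for peak densities), and they cover counting error only.

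Members were chosen by position. A peak on chromosomes 1 to 19 was taken when its midpoint lay within 1 kb of either end of a protein-coding gene of the RefSeq table for mm10, and not within 1 kb of a gene whose symbol starts with H1f, H2ac, H2bc, H3c, H4c, Rpl or Rps. These prefixes miss some symbols, and 2 members lay at histone genes that they do not take, H4f16 (7.95, at the 3′ end) and H4bc24 (4.57, at the start). Of 12181 peaks in the list, 11545 lay on chromosomes 1 to 19, and 642 of these were at a gene end. Of these, 75 were left out at histone genes and 58 at ribosomal protein genes. The other 509 peaks, 4.41% of the peaks on these chromosomes (4.04 to 4.80%), are the gene-end peaks described here. They lay at 478 genes, so that 2.34% of the 20396 genes outside the left-out symbols had one. Each peak carries a score from the authors, taken as the −log10 q, which ranks peaks within the list and is no measure of how much protein was bound. The number of reads behind it is unknown.

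The ends of a gene have different roles. RNA polymerase II assembles at the promoter, just before the start, while at the 3′ end the transcript is cut and polyadenylated and the polymerase goes on transcribing for some distance before it leaves the DNA. A ChIP-Seq peak marks DNA that was precipitated together with the tagged protein after crosslinking, directly or through other proteins or RNA, and it does not measure whether the nearby gene is expressed. Which end of a gene is its start was known for 16322 of the 20396 genes (80.03%), those with a strand in the RefSeq promoter table. Start and 3′ end here are the outer limits of the gene's record, and the starts listed in the promoter table can lie elsewhere. Within 1 kb of a listed start lay 171 of the 509 members, fewer than the 192 counted below as nearest to a start. Of the 212 nearest to a 3′ end, 6 lay within 1 kb of a listed start. Some members counted at starts therefore had no listed start within 1 kb, which limits the division between starts and 3′ ends.

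The members that overlapped a promoter are shown first, because these are the peaks whose sequence could be read. The RefSeq promoter table holds 250 bases before and 50 bases after a gene's start, and 59 members overlapped such a window, 35 of them with their midpoint inside. Printed here are the windows of the 8 members with the highest scores among those 35, and that of Dusp6, from the signalling list. Coordinates are those of GRCm38.p6 (mm10), each sequence runs 5′ to 3′ on the gene's strand, and capitals mark matches on either strand to the 12 short motifs given below.
Mobp (chr9:120149492-120149791, plus strand): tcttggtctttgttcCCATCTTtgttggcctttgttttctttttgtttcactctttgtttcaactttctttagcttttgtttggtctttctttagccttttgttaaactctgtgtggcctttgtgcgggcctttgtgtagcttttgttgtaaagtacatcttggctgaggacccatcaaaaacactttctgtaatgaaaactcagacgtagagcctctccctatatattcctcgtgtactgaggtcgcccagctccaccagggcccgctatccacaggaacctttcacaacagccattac
Timp4 (chr6:115252156-115252455, minus strand): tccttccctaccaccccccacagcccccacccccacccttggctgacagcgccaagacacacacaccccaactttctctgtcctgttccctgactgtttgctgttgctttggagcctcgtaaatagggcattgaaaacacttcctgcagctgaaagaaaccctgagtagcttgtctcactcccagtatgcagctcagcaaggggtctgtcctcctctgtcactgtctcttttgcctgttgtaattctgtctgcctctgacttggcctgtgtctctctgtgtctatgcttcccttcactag
Lrrtm3 (chr10:64090206-64090505, minus strand): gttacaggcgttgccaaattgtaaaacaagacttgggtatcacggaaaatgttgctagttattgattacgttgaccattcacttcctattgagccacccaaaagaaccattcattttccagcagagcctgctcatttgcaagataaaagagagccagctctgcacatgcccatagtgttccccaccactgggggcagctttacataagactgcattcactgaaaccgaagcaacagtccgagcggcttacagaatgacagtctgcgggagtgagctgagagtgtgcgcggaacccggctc
Fam169a (chr13:97067037-97067336, plus strand): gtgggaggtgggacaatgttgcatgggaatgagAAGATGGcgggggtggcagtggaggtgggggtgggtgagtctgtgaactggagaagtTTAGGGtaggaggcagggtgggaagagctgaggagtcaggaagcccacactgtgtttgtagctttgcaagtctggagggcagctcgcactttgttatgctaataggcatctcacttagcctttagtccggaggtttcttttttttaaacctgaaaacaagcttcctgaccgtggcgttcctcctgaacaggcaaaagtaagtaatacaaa
Gm52782 (chr5:33825977-33826276, minus strand): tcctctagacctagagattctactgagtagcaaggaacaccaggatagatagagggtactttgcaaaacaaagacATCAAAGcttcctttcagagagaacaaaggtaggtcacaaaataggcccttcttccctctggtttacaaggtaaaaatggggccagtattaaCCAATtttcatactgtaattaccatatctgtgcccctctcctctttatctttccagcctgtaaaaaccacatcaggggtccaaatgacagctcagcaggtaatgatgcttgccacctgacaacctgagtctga
Pipox (chr11:77893823-77894122, minus strand): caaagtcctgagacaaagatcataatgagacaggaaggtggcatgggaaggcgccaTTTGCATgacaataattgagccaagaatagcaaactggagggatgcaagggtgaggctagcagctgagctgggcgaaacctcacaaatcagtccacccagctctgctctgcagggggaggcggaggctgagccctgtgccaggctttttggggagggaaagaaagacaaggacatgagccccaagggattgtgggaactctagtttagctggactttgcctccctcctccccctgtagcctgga
Gsx1 (chr5:147188446-147188745, plus strand): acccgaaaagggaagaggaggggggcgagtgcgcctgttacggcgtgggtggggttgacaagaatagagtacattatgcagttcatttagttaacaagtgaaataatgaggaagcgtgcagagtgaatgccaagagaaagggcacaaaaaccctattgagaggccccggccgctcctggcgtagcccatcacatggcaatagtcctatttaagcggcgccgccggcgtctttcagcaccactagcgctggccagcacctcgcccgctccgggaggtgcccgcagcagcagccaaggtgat
Rfx4 (chr10:84755798-84756097, plus strand): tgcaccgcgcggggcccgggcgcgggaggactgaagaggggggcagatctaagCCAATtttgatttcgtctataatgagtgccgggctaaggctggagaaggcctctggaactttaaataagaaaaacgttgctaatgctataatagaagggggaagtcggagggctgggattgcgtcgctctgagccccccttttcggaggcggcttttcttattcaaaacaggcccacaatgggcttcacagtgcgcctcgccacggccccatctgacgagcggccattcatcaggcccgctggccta
Dusp6 (chr10:99262981-99263280, plus strand): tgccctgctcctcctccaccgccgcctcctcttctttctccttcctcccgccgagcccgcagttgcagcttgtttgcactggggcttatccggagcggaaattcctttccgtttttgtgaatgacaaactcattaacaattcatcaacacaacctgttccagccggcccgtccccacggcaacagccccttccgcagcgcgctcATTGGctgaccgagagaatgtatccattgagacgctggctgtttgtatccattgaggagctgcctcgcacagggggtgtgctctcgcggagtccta

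Mobp encodes a protein of myelin, Timp4 an inhibitor of metalloproteinases, Lrrtm3 a synaptic membrane protein, Pipox an oxidase of peroxisomes, Gsx1 a homeobox factor of the developing brain, Rfx4 a transcription factor of the RFX family and Dusp6 a phosphatase that turns off ERK. The peak at Mobp had a score of 137.7 and its midpoint lay 175.5 bp before the start. The score was 39.2 at Timp4, 27.9 at Lrrtm3, 24.7 at Fam169a, 21.6 at Gm52782, 19.3 at Pipox, 18.3 at Gsx1, 15.5 at Rfx4 and 5.11 at Dusp6. All 9 midpoints lay before the start, the closest at Rfx4 with 24 bp and the farthest at Pipox with 220 bp. CpG content ranged widely among them. CpG dinucleotides numbered 5 in the window of Mobp, 2 in that of Timp4 and 0 in that of Gm52782, but 19 in Gsx1, 20 in Rfx4 and 19 in Dusp6.

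In all, the members overlapped 62 promoter windows of 60 genes. The median GC content of these windows was 53.5% (quartiles 48.0 and 63.3), against 57.0% (48.7 and 65.0) over all 19913 windows of the table. The ratio of observed to expected CpG had a median of 0.695 in the overlapped windows, against 0.582 in all, and it was above 0.6 in 39 of 62 (62.9%), against 48.7%. No interval is given for these CpG values. The 12 motifs searched on both strands were TATAAA (the TATA box), CCAAT (the core of NF-Y sites), GGGCGG (the GC box of Sp factors), CCGGAAG (the core of ETS family sites), GCGCATG (part of NRF1 sites), CACGTG (an E-box), AAGATGG (the core of YY1 sites), TTTGCAT (an octamer site), CATTGTT (the core of SOX sites), CTTTGAT (the core of TCF and LEF sites), GGTTCGA (part of the inner promoter of tRNA genes) and TTAGGG (the telomere repeat). CCAAT stood in 40.3% of the overlapped windows and 38.0% of all, and GGGCGG in 43.5%, against 47.0% of all. TATAAA stood in 8.06%, against 12.6% of all, CCGGAAG in 14.5%, against 11.8%, and TTTGCAT in 4.84%, against 4.24%. For each of the 12 motifs, the share of all windows lay inside the interval of the overlapped ones. A match is a run of letters and not a bound site.

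Gene-end peaks were divided about evenly between starts and 3′ ends. Of the 404 members at genes of known strand, 192 (47.5%, 42.6 to 52.5%) were nearest to a start and 212 (52.5%) to a 3′ end, and for 105 the end is not known. A member lay at the start of 1.19% of genes of known strand and at the 3′ end of 1.26%. Most members lay just outside the gene. The midpoint was outside the gene body in 318 of 509 (62.5%, 58.1 to 66.7%). At starts this was 129 of 192 (67.2%), and beyond the 3′ end it was 128 of 212 (60.4%). The median position was 178 bp before the start and 246 bp beyond the 3′ end. In steps of 250 bp through the 2 kb around starts, the members numbered 30, 26, 32 and 41 before the start and 20, 10, 14 and 19 after it. Around 3′ ends they numbered 22, 29, 18 and 15 before the end and 24, 36, 36 and 32 beyond it.

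**Figure D1:**
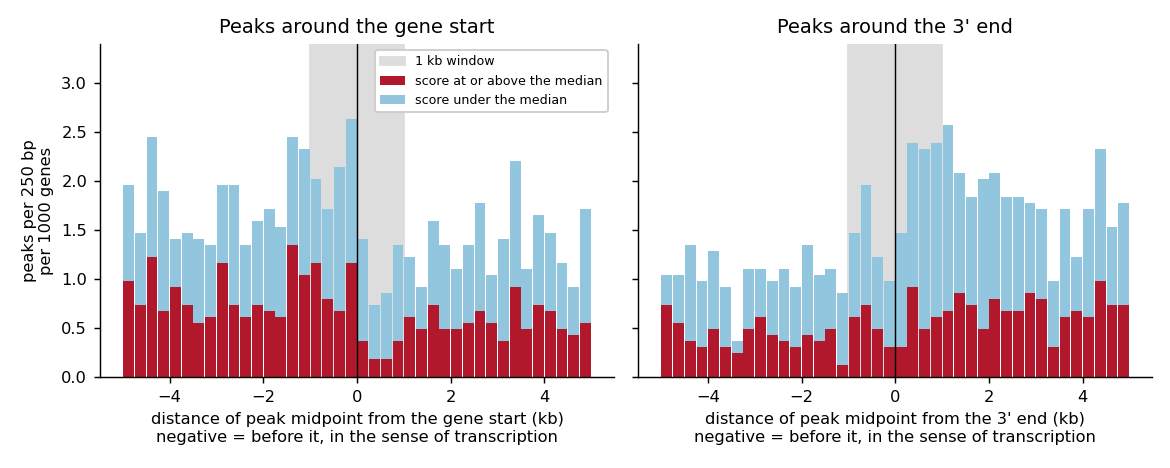
Peaks per 250 bp and 1000 genes (y axis) by distance of the midpoint in kb from the start (left) and from the 3′ end (right) of 16322 genes of known strand, with negative distances before the start or end; stacked bars divide the peaks by the median score, and grey marks the 1 kb on either side. Per kb, all peaks reach 8.52 in the 1 kb before the start and 4.35 after it, and 8.58 in the 1 kb beyond the 3′ end.

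Read over a wider stretch, the gene ends stood out little from the DNA next to them. Counted as peaks per kb and 1000 genes, the density was 8.52 in the 1 kb before the start (7.16 to 10.1) and 7.08 from 5 to 1 kb before it (6.45 to 7.75). In the 1 kb after the start the density was 4.35 (3.397 to 5.487), and 5.499 from 1 to 5 kb after it. The 1 kb before starts therefore held more peaks than the 1 kb after them, with intervals that did not meet. At 3′ ends the density was 8.58 in the 1 kb beyond the end (7.22 to 10.1) and 7.26 from 1 to 5 kb beyond it (6.62 to 7.94). Before the 3′ end it was 5.64 in the last 1 kb and 4.14 from 5 to 1 kb before the end. All genes were counted whatever their length, so in short genes these stretches run past the other end. Low-scoring peaks made up most of the peaks beyond 3′ ends. Peaks under the median score averaged 1.56 per 250 bp and 1000 genes in the 1 kb beyond the end and 1.11 from 1 to 5 kb beyond it, whereas those at or above the median averaged 0.582 and 0.701 in the same stretches.

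Members had lower scores than the other peaks. Their median score was 7.74 (quartiles 4.78 and 12.8, range 1.46 to 137.7), against 10.1 for the 11036 other peaks on the same chromosomes, the left-out ones included (6.004 and 19.6, range 1.305 to 216.1). Cut into quartiles of the score, from the lowest to the highest, members made up 6.20%, 5.28%, 3.77% and 2.39% of the peaks. At starts the median score was 8.36, at 3′ ends 7.13 and at ends of unknown strand 7.18, and the quartiles of starts (5.26 and 13.6) and of 3′ ends (4.68 and 11.4) overlap. The 133 gene-end peaks left out at histone and ribosomal protein genes had a median of 5.28. A score also depends on the local background, which was not measured here.

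**Figure D2:**
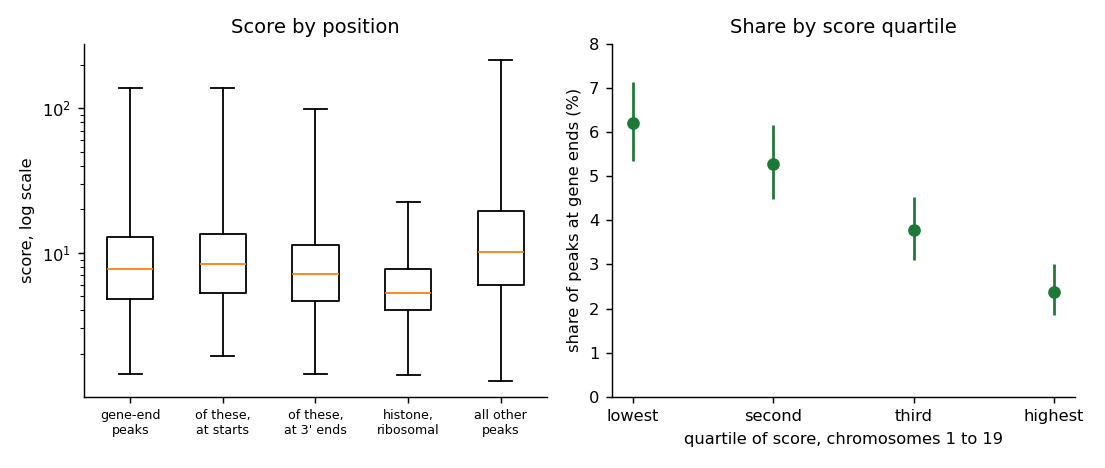
Left, the authors' peak score (log axis) of members, of members at starts and at 3′ ends, of the peaks left out at histone and ribosomal protein genes, and of all other peaks; boxes are medians and quartiles, and whiskers the lowest and highest score. Right, the share of peaks that are members by quartile of the score, with exact 95% intervals, which is 6.20% in the lowest and 2.39% in the highest quartile.

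The widest gene-end peaks were mostly at 3′ ends. Members had a median width of 210 bp, against 215 bp for the other peaks, and 32 members (6.29%) were 500 bp or wider, against 371 other peaks (3.36%). Such wide peaks were 18 of 212 members at 3′ ends (8.49%, 5.11 to 13.1%) and 6 of 192 at starts (3.13%, 1.16 to 6.68%), with intervals that overlap. Of the 20 widest members, 14 were at 3′ ends, 3 at starts and 3 at ends of unknown strand. The 5 widest were those at Ccnb1ip1 (2501 bp, across the start), Ncl (1944 bp, across the 3′ end), Hnrnpa2b1 (1673 bp, across the 3′ end), 9030025P20Rik (1307 bp) and Denn2b (1088 bp, across the 3′ end). Ncl encodes nucleolin, an abundant nucleolar protein, and Hnrnpa2b1 an RNA-binding protein of the hnRNP family.

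The 25 members with the highest scores, down to 35.7, were a mixed group of genes. Of these peaks, 6 were at starts, 11 at 3′ ends and 8 at ends of unknown strand, and 14 lay outside the gene body. After Mobp, the highest scores were 99.7 at Gm33153, 91.2 at a peak shared by Dido1 and Gid8, 86.2 at Upp1, 73.3 at Aspm, 65.9 at Insyn2b, 65.4 at Gm6818, 58.9 at Ifitm2 and 55.1 at Rif1. Upp1 encodes uridine phosphorylase, which breaks down uridine, and its peak (chr11:9117037-9117255) lay 862 bp before the start, while a second peak 833 bp beyond its 3′ end scored 1.46. Aspm encodes a protein of the mitotic spindle poles, and its peak (chr1:139494598-139495002) lay 712 bp beyond the 3′ end. Ifitm2, an interferon-induced membrane protein gene, had its peak (chr7:140959477-140959863) 16 bp inside the outer limit of the gene's record, while the promoter table lists the start of Ifitm2 elsewhere, so no window is printed for it. Rif1 encodes a factor in replication timing and DNA repair, with a peak (chr2:52072021-52072533) 538 bp outside the gene at an end of unknown strand.

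Further down the 25, scores ran through 51.7 at Csn3, 49.6 at a peak shared by Ugt2a1 and Ugt2a2, 48.4 at Epc1, 44.8 at Zfp605, 44.0 at Aadacl2fm3, 43.4 at Pxdc1, 42.8 at Rerg and 42.4 at Dpy30. Csn3 encodes the milk protein kappa-casein, the Ugt2a genes enzymes that attach glucuronic acid, and Epc1 a subunit of the NuA4 (TIP60) histone acetyltransferase complex. Dpy30, a subunit of the complexes that methylate histone H3 at lysine 4, had its peak inside the gene, 799 bp from the 3′ end. Lower still were Cep112 and 4931422A03Rik (40.2 each), Gjc1 (39.8), Timp4 (39.2), Nlrp4a (37.1) and Nacc2 (36.6). The 25 peaks belonged to 27 genes. Of these, 4 (Mobp, Aspm, Rif1 and Epc1) were in the 18 lists written out by symbol below, as were 58 of the 478 genes with a member. All 4 had been named in earlier results of these data, and the neural list was written with the peak at Mobp known.

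The 18 lists of genes written out by symbol were chosen with earlier results of these data known, so their shares only describe them. Among them, core pluripotency genes had the largest share with a gene-end peak at the 1 kb limit. A member lay at 14 of 37 of these genes (37.8%, 22.5 to 55.2%), against 2.34% of all genes. The list holds the transcription factors and markers of undifferentiated ES cells, and the highest peak per gene had a median score of 8.01. Over all pairs of a peak and a gene, this list and the signalling list together had a median of 6.51. For all other genes, leaving out also the lists for RNA processing, translation and the cytoskeleton below, it was 7.74. Peaks that scored 10.03 (the median of these chromosomes) or more lay at 4 of the 37, against 0.873% of all genes, and at 4 of 14 neural genes (28.6%). At a limit of 500 bp, core pluripotency genes with a member were 6 of 37 (16.2%) and cytoskeleton genes 3 of 16 (18.8%), so the order of the lists depends on these settings. The 4 core pluripotency genes were Rif1, Fbxo15 (21.3), Spp1 (10.7) and Tdgf1 (10.5). Tdgf1, the Nodal co-receptor Cripto, had its peak 517.5 bp beyond the 3′ end.

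Of the 16 peaks at core pluripotency genes, 8 were at 3′ ends, 4 at starts and 4 at ends of unknown strand. Zfp42 (Rex1), a zinc finger marker of undifferentiated ES cells, had a peak of 8.93 that lay 439.5 bp beyond its 3′ end and one of 2.76 that lay 197 bp inside its start. Trim28, which encodes a co-repressor of KRAB zinc finger proteins, had peaks of 9.91 and 3.18 beyond its 3′ end, where the end of Chmp2a lies as well. Esrrb, an orphan nuclear receptor of the pluripotency network, had a peak of 4.20 lying 304 bp beyond its 3′ end, and Utf1 one of 6.91 lying 664 bp beyond. At Pou5f1, which encodes Oct4, the peak (6.11) lay 904 bp before the start. The remaining genes were Dppa4 (8.41), Fgf4 (7.61), Dppa2 (6.63), Zscan10 (6.38) and Klf4 (3.25).

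In the list of LIF, BMP, Wnt and ERK signalling, 6 of 37 genes (16.2%, 6.19 to 32.0%) had a gene-end peak, and 0 of them at or above the median score. Fgf4 and Klf4 stood in this list as well. The others were Smad7 (5.21), an inhibitor of TGF-β signalling, and 3 genes induced by ERK, namely Dusp6 (5.11), Etv4 (3.10) and Spry4 (3.02). Apart from Dusp6, whose promoter is printed above, their strand was not known.

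**Figure D3:**
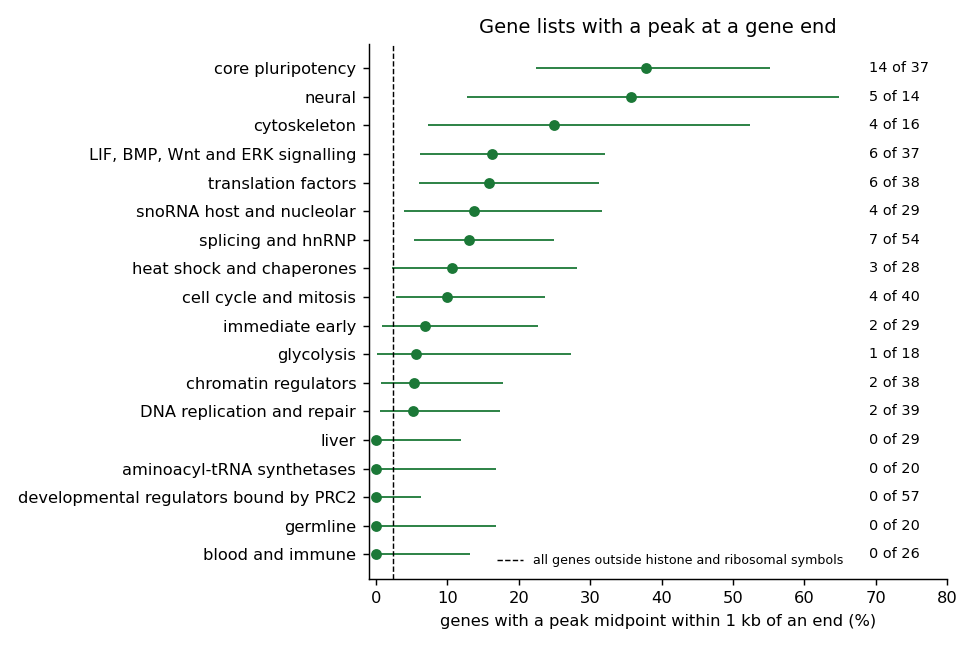
Share of the genes of each of the 18 lists with a member at an end (x axis, %), with exact 95% intervals and the count beside each; the dashed line is the 2.34% over all genes. Core pluripotency, with 14 of 37, is highest, and 5 lists are at 0.

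Lists of genes for RNA processing, translation and the cytoskeleton also had gene-end peaks, and most of those at known ends were at the 3′ end. Translation factors had a gene-end peak at 6 of 38 genes (15.8%, 6.02 to 31.3%), none of them at or above the median score, splicing and hnRNP genes at 7 of 54 (13.0%, 5.37 to 24.9%), and snoRNA host and nucleolar genes at 4 of 29 (13.8%, 3.89 to 31.7%). Cytoskeleton genes had one at 4 of 16 (25%, 7.27 to 52.4%), heat shock and chaperone genes at 3 of 28 (10.7%) and glycolysis genes at 1 of 18 (5.56%). Of the 12 peaks at splicing and hnRNP genes, 11 were at 3′ ends, and of the 7 at translation factors, 6.

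In detail, Hnrnpa2b1 had a peak of 14.3 with its midpoint 467 bp beyond the 3′ end and one of 2.15 inside it. Hnrnpa3 had peaks of 10.4 and 6.44, with midpoints 921 bp and 76 bp beyond. Hnrnpa1 had 3 members, scoring 9.59 inside and 4.25 beyond the 3′ end, and 4.35 inside the start, of which the 4.25 peak is shared with Nfe2 and the 4.35 peak with Cbx5. Peaks also lay beyond the 3′ ends of Prpf31 (10.3) and Srsf5 (5.87), which encode factors of splicing. Hnrnpa1, Hnrnpa2b1 and Hnrnpa3 each had more of their members at the 3′ end than at the start.

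Among translation factors, Eif4a2, an RNA helicase of initiation, had a peak of 9.84 lying 562 bp beyond its 3′ end and inside the last 1 kb of its neighbour Rfc4, and one of 3.599 inside its start. The elongation factor gene Eef1a1 had a peak of 6.79, Tpt1 one of 6.32 and the cap-binding factor gene Eif4e one of 4.05, all beyond the 3′ end, and Eef1b2 one of 9.16 inside it. Gapdh, the glycolytic enzyme, had peaks of 5.63 and 5.07 lying 767 bp and 352 bp beyond its 3′ end, both of them nearer to an end of its neighbour Iffo1. Both γ-actin (Actg1, 8.76, 354 bp) and a β-tubulin (Tubb4b, 8.29, 507.5 bp) had peaks beyond the 3′ end, and Tubb4b one of 11.2 inside its start. The 8.29 peak of Tubb4b is shared with Fam166a. Actb had peaks of 4.71 and 2.54, both outside the gene at an end of unknown strand.

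Nucleolar genes reached a score of 21.9. Npm1, which encodes nucleophosmin, had peaks of 21.9 and 4.73 at ends of unknown strand, Ncl one of 19.7 at its 3′ end and one of 8.31 inside its start, Nop58 one of 13.7 inside its start, and Nop56 one of 4.91 lying 229.5 bp beyond its 3′ end and shared with Idh3b. Nop56 and Nop58 encode core proteins of box C/D snoRNA particles. Among chaperones, Hspa4 had peaks of 18.7 and 2.53 inside its 3′ end, Hsp90ab1 one of 2.72, and Ppia one of 1.83 beyond the 3′ end.

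These 6 lists were pooled after their values had been seen, so the pooled counts only describe them. Of their 183 genes, 25 (13.7%) had a member. Over pairs of a peak and a gene, 26 of 31 at known ends were at the 3′ end (83.9%, 66.3 to 94.5%), 20 of them beyond it. For pluripotency and signalling genes this was 8 of 13 (61.5%, 31.6 to 86.1%), and for all other genes 196 of 393 (49.9%, 44.8 to 54.9%). Some genes gave several pairs, among them Hnrnpa1, Hnrnpa3 and Gapdh in the 6 lists, and these intervals do not allow for that. Of the 37 pairs of the 6 lists, 8 rest on a peak shared with another gene. Without shared peaks, a choice made after seeing the data, 19 of 23 were at the 3′ end (82.6%, 61.2 to 95.05%), against 173 of 338 (51.2%) for all other genes. The 25 genes were short, with a median length of 5882 bp, against 12212 bp for all 183.

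The density of peaks around these 6 lists was highest beyond the 3′ end and was not bounded by the 1 kb limit. Over 155 genes of known strand, it was 129.0 peaks per kb and 1000 genes in the 1 kb beyond the 3′ end (78.8 to 199.3), from 20 peaks at 17 genes. From 1 to 2 kb beyond the end it was 141.9, from 22 peaks at 18 genes. In all other genes the corresponding densities were 7.07 and 6.76. Stretches were counted from each end separately, whatever the gene's length, so in short genes they run past the other end. A peak beyond the 3′ end of a short gene, as at Actg1 (2809 bp long), is then counted again after the start. How much of the densities below comes from such peaks was not tested. In the stretches after the start and before the 3′ end, too, the 6 lists lay above all other genes. Their density was 32.3 in the 1 kb after the start, against 3.97, and 33.9 from 1 to 5 kb after it, against 5.04. In the last 1 kb before the 3′ end it was 38.7, against 5.21, and from 5 to 1 kb before that end 25.8, against 3.88. From 5 to 1 kb before the start it was 4.84, against 6.89. In the 1 kb before the start of the 155 genes there were 0 peaks. The exact interval of that count reaches 23.8 and takes in the 8.44 of other genes, so no difference was detectable there.

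At pluripotency and signalling genes, densities lay above those of all other genes in every stretch. Over 47 genes of known strand the density was 79.8 from 5 to 1 kb before the start and 63.8 in the 1 kb before it, against 6.89 and 8.44. In the 1 kb beyond the 3′ end it was 127.7 (46.8 to 277.9), and from 1 to 5 kb beyond it 90.4, against 7.07 and 6.48. In the 1 kb after the start it was 42.6, and from 1 to 5 kb after it 69.1, against 3.97 and 5.04. In the last 1 kb before the 3′ end it was 42.6, and from 5 to 1 kb before that end 21.3, against 5.21 and 3.88. With 2 to 17 peaks in each of these stretches, the intervals of these genes overlap.

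**Figure D4:**
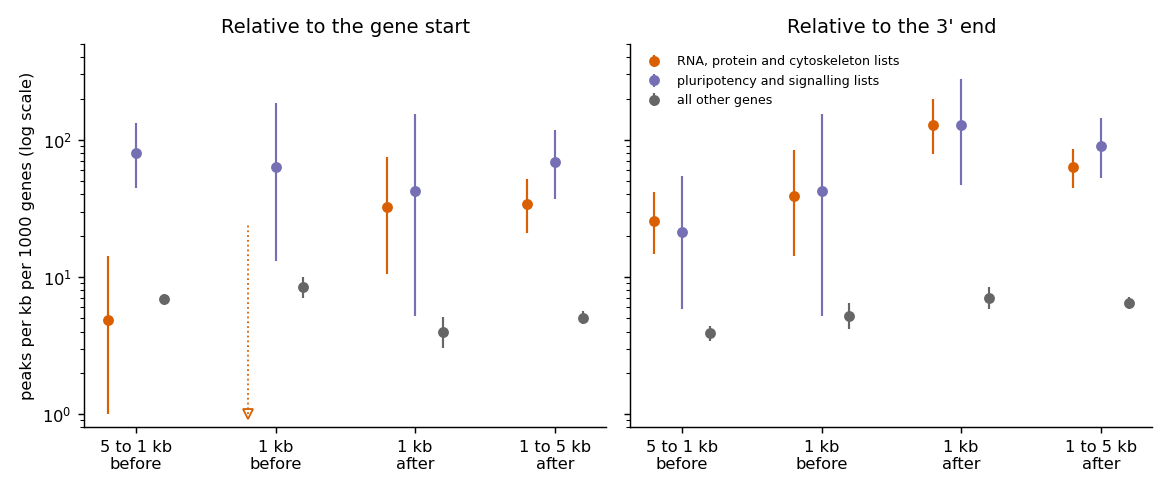
Peaks per kb and 1000 genes (y axis) in stretches before and after the start and the 3′ end, for the 6 pooled lists of RNA, protein and cytoskeleton genes, for pluripotency and signalling genes and for all other genes, with exact 95% Poisson intervals on a log axis; the open triangle is a count of 0 with its upper bound. The 6 pooled lists reach 129.0 in the 1 kb beyond the 3′ end. Their 0 in the 1 kb before the start has an interval that takes in the other genes' 8.44. In short genes a stretch runs past the other end, so a peak can be counted at both ends.

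**Figure D5:**
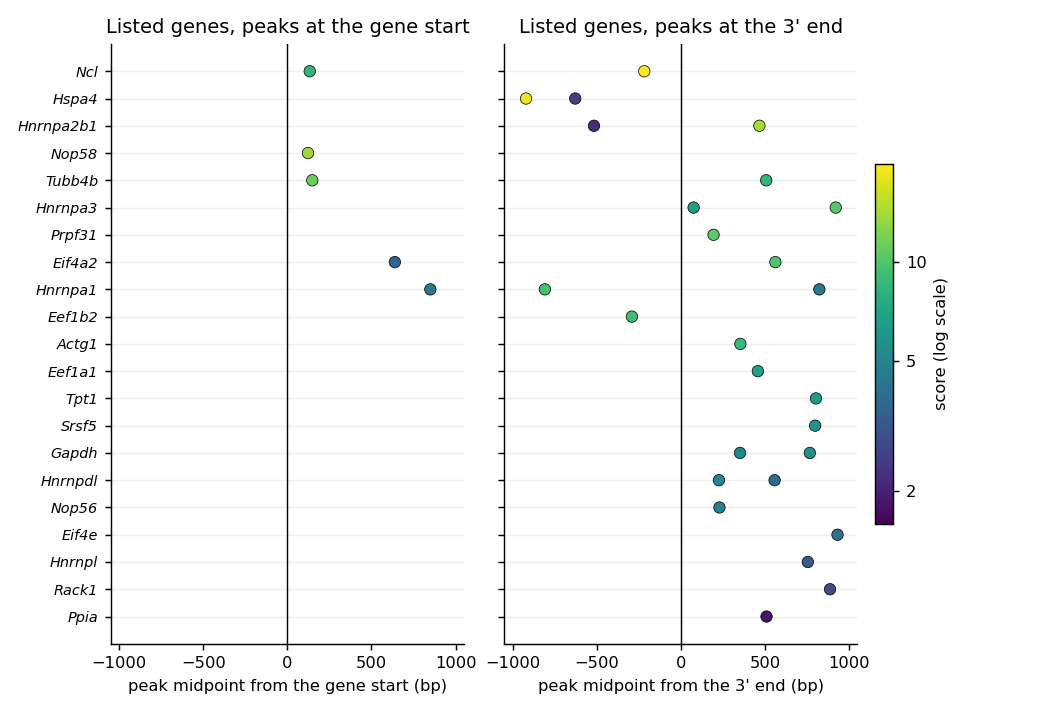
Midpoint of each gene-end peak at the genes of known strand in the 6 pooled lists, by its distance in bp from the start (left) and from the 3′ end (right), negative before it and positive after it, with colour for the score. In these lists 20 points lie beyond the 3′ end.

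The remaining lists with a peak were of other kinds. Cell cycle and mitosis genes had one at 4 of 40 (10.0%, 2.79 to 23.7%), namely Aspm, the checkpoint kinase gene Bub1b (28.1, inside the 3′ end), the phosphatase gene Cdc25b (7.20) and Ect2 (4.89). DNA replication and repair genes had 2 of 39, Xrcc5 (11.8, before the start) and Rfc4. Chromatin regulators had 2 of 38, Epc1 and the PRC2 subunit gene Eed (6.47, beyond the 3′ end), and immediate early genes 2 of 29, Klf6 (7.13) and Ier2 (1.86). The neural list, with genes of nerve cells and glia, had 5 of 14 (35.7%, 12.8 to 64.9%). Without Mobp it had 4 of 13 (30.8%), which were Gad2 (33.3, 785 bp before the start), Map2 (13.6, beyond the 3′ end), Nefl (10.5) and Mog (7.27, shared with Zfp57). Gad2 makes the transmitter GABA, Map2 and Nefl encode parts of the neuronal cytoskeleton, and Mog a protein of myelin.

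A count of 0 was found in 10 of the 37 lists, the 18 by symbol and 19 by name pattern. Developmental regulators bound by PRC2 had 0 of 57, where 3 genes would be 5.26%, and cadherins and protocadherins 0 of 90, where they would be 3.33%. The cadherin count turned on 1 peak with a score of 60.1, which lay 1009 to 1019 bp from ends that 21 protocadherin genes have close together: with any overlap with the window, or with a limit of 2 kb, it was 21 of 90 (23.3%). Keratins (0 of 53), proteasome subunits (0 of 39), liver genes (0 of 29), RNA polymerase subunits (0 of 28), blood and immune genes (0 of 26), germline genes and aminoacyl-tRNA synthetases (0 of 20 each) and replacement histone variants (0 of 10) had none either. Against 2.34% of all genes, lists of these sizes are too small to show an absence.

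Lists by name pattern had shares on both sides of the 2.34% of all genes. Mitochondrial ribosomal protein genes had 1 of 78 (Mrps18b, 3.51, shared with Ppp1r10) and oxidative phosphorylation genes 1 of 89 (Cox7c, 3.17). Zinc finger genes named Zfp had 12 of 388 (3.09%, 1.61 to 5.34%), led by Zfp605 and Zfp37 (17.7). Olfactory and vomeronasal receptor genes, which lie in large clusters, had 7 of 1454 (0.481%, 0.194 to 0.989%), led by Vmn1r77 (32.6). Solute carriers had 6 of 362 (1.66%), led by Slc39a14 (35.2) and Slc25a1 (32.3), and genes named Tmem 5 of 231 (2.16%). Rab GTPases had 4 of 65 (6.15%), led by Rab6b (22.3), interferon-induced genes 3 of 46 (6.52%, 1.37 to 17.9%), initiation factors named Eif 3 of 53 (5.66%) and kinesins 2 of 37 (5.41%). UDP-glucuronosyltransferases had 2 of 22 (9.09%), both at the shared Ugt2a peak, ubiquitin pathway genes 3 of 95 (3.16%) and cytochromes P450 1 of 97 (1.03%).

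Genes named Gm or Rik, most of them predicted and little studied, had a member at 47 of 1350 (3.48%, 2.57 to 4.60%), with 66 peaks. Some are near-identical copies, where reads could be assigned to any copy, so their peaks are uncertain. Gm6818, Gm21129 and Gm6833, within 1 stretch of chromosome 7, had peaks of 65.4, 33.8 and 20.2 at nearly the same place, 420.5, 473 and 490.5 bp inside the 3′ end. Gm15319 had 7 members, Gm36079 and Gm3435 had 5 each, 9030025P20Rik had 4 and Gm17353 had 3. Of all 478 genes, 152 were in any of the 37 lists and 326 in none, while the lists took in 5106 of the 20396 genes.

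Most genes had a single member. Of the 478 genes, 427 had 1 member and 51 had 2 or more, and 9 had 3 or more. Besides the 5 just named, they included Chmp2a with 4, and Hnrnpa1 and Matn2 with 3 each. Members lay at both ends of 15 genes, which were Agtrap, Eif4a2, Gm15319, Gm17353, Gm3435, Gm36079, Hnrnpa1, Nck2, Ncl, Nucks1, Pdk1, Rabggtb, Tubb4b, Upp1 and Zfp42. At the adaptor gene Nck2 the peaks scored 13.3 beyond the 3′ end and 3.23 before the start, and at Nucks1 they scored 12.3 before the start and 4.07 beyond the 3′ end.

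A shared end accounted for 39 members, which lay within 1 kb of the ends of more than 1 gene. In 10 of them both ends were starts, in 10 both were 3′ ends, in 8 one was a start and one a 3′ end, and in 11 a strand was unknown. The highest were those of Dido1 and Gid8, of Ugt2a1 and Ugt2a2, of Rpe and Unc80 (19.3), of Taf1d and Cep295 (16.6) and of Glyr1 and Rogdi (10.8). For such peaks the gene cannot be told.

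Members had neighbouring peaks more often than other peaks. Another peak lay within 10 kb of 41.7% of members (37.3 to 46.1%), against 30.1% of other peaks (29.3 to 31.0%). Of the members, 62 (12.2%) lay in 26 of the 63 dense regions, runs of at least 6 peaks with no gap over 10 kb, against 4.91% of other peaks. Genes with several members in such regions, among them Ncl, Npm1, Eif4a2 and Zfp42, therefore do not give independent peaks.

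Genes of snoRNAs lay near members more often than near other peaks. Within 1 kb of a snoRNA gene were 17 members (3.34%, 1.96 to 5.29%), against 34 other peaks (0.308%, 0.213 to 0.430%). snoRNAs guide chemical changes in ribosomal RNA and are mostly cut from introns of host genes. Members near them included those at Zbtb37 (14.6), Znfx1 (8.27 and 6.21), Taf1d (16.6), Rabggtb (8.24, near Snord45c), Mcmdc2 (7.68, near Snord87), Tex2 (5.28, near Snord104), Lrrc75a (4.73 and 4.28, near Snord65), Eif4a2 (3.599, near Snord2) and Tmem107 (2.11, over Snord118), and at Traf7, Rab26 and Cox7c. Members lie at gene ends by the rule and the other peaks need not, and the part of this in the shares was not tested.

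A tRNA gene lay within 1 kb of 5 members (0.982%, 0.320 to 2.28%), against 32 other peaks (0.290%, 0.198 to 0.409%), with intervals that overlap. These members were at Smarcc2, Ppp6r3, Knl1, Agbl5 and Rab11a, all nearest to the start. An snRNA gene lay near 4 members (0.786%, 0.215 to 2.00%), against 0.245% of other peaks (0.161 to 0.356%), with intervals that overlap. Among them was Grcc10 (2.24), whose peak covered Rnu7, the U7 RNA of histone pre-mRNA processing. A microRNA gene lay near 4 members (0.786%) and 0.236% of other peaks, again with overlapping intervals, and one of these, 6.59 at the 3′ end of Nlrp12, lay in the Mir290 cluster, the microRNAs of early mouse embryos and ES cells. Long non-coding RNA genes lay within 1 kb of 12.8% of members and 11.1% of other peaks, and pseudogenes within 1 kb of 0.589% of members and 1.68% of other peaks, both with overlapping intervals.

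The members nearest to the limit were those at Rufy1 (997 bp, score 5.29), Anxa11 (997 bp, 13.4) and Fam189a1 (996.5 bp, 13.96). Just outside it lay peaks at Spred1 (1003 bp, 26.2) and Actg1 (1005 bp, 2.95), and one at Rpl11 (1000.5 bp, 10.1), a ribosomal protein gene. By chromosome, the share of genes with a member ran from 1.14% on chromosome 19 to 3.65% on chromosome 1.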

How the data were processed

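ChIP-Seq reads of 1 TOBF1 library were processed with cutadapt, Bowtie2, MACS2 and bedtools on mm10, per the submitters' processing notes; versions and settings are not stated there. The sources used here do not say whether the input was the control of the peak call. A score stands beside each peak in the deposited list and was taken as the −log10 q-value, since the lowest one, 1.304, is just above that of q = 0.05. Read depth is unknown. Genes came from the RefSeq table of GRCm38.p6, whose positions are those of mm10, without the 107 protein-coding genes placed on other sequences, and strand from its promoter table. Exons and introns were not used here.

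Members and gene lists were chosen with earlier results of these data known. Named genes were the 25 highest members, the 5 widest, up to 5 per list by score, and those shared, repeated, at both ends or nearest the limit. Genes named beyond these, including all members of the core pluripotency and signalling lists, were chosen after their values were seen. A few genes within this rule are not reported. Alternatives were other distances, overlap, score limits, merged peaks, dense regions left out and histone and ribosomal protein genes included. The counting was tested on simulated data. Software was pandas 2.3.3 and SciPy 1.17.1, with NumPy 2.4.6 and, for plots, matplotlib 3.10.9, under Python 3.11.15.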

Additional observations from a re-analysis of the deposited data

How the results depend on the processing

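With the limit at 500 bp there were 246 members, 2.13% of peaks, at 1.196% of genes, and 52.6% of those at known ends were at starts; at 2 kb there were 971, 8.41% of peaks, at 4.31% of genes. Any overlap with the 1 kb window gave 4.98% of peaks and 2.68% of genes. With peaks from the median score upwards there were 178 members, 3.08% of peaks, at 0.873% of genes, with 53.1% at starts and median scores of 16.9 for members and 19.5 for other peaks. With histone and ribosomal protein genes included, members were 5.56% of peaks at 2.80% of genes, with a median score of 7.07. Merging peaks within 1 kb gave median scores of 8.31 for members and 10.8 for others; a score of 3 or more gave 10.6 for others, and leaving out dense regions 10.4. With the 500 bp limit and with the score limit, the share at starts came out above that at 3′ ends. Its intervals were 45.3 to 59.7% and 44.6 to 61.4%, against 42.6 to 52.5% at the main settings. These overlap and each takes in an even division, so no turn is shown. Cadherins and protocadherins, at 0 of 90, came to 21 of 90 at 2 kb and with any overlap, through 1 peak. At 500 bp, core pluripotency genes with a member numbered 6 of 37, neural genes 1 of 14 and translation factors 2 of 38, and translation factors also numbered 2 of 38 with peaks merged. Members scored lower than other peaks under each of these settings. No paired analysis was possible because there is 1 library with a peak list. Read depth is unknown, no replicate shows the spread of any value, and strand was missing for part of the genes.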
